A study of Mus musculus with 28 samples.

Results

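The comparison described here set CD4 T cells kept under continuous antigen stimulation for 5 days against CD4 T cells that were never stimulated and were taken at the same age of the experiment. Its members were chosen by sample title and comprise 5 of the 28 arrays of the series, 3 labelled continuous and 2 labelled unstimulated. All 12393 genes with a single-gene probe set on the Affymetrix Mouse 430A2 array were tested. Every array held RNA from CD4+ AND-TCR transgenic T lymphocytes on the C57BL/6N background, that is, cells carrying 1 rearranged T cell receptor specific for a cytochrome c peptide on MHC class II. The unstimulated cells spent 2 days in untreated round-bottom wells and then 3 days in an antigen-free host. The continuous cells spent the 2 days in wells coated with anti-CD3 and anti-CD28 antibodies at 10 µg/ml and then 3 days in a host that expressed their antigen (labelled dtg-O or -M). Both cultures contained IL7, a survival cytokine of resting T cells, at 5 ng/ml. Cells were recovered from spleen and subcutaneous lymph nodes and sorted by the same scheme to a purity above 99%. The groups therefore differed in the culture stimulus and in the host together, and the share of each cannot be told apart within this comparison. The labels describe the replicates as independent biological replicates, and give no date or batch.

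A resting CD4 T cell circulates between lymphoid organs, depends on IL7 and holds its cell cycle and effector genes silent. Engagement of the T cell receptor together with CD28 drives it into division and lets it acquire cytokine, chemokine and, in some settings, cytotoxic genes. Antigen that persists is known to maintain inhibitory receptors such as CTLA-4, PD-1, LAG-3 and TIM-3 on T cells, alongside or in place of effector functions.

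The deposited values were log2 intensities, so a difference of 1 log2 unit is a doubling, and array medians over all probe sets were alike (6.34 to 6.39 on the 5 arrays). Across genes, the correlation between the 2 unstimulated arrays was 0.9919, that within the continuous arrays 0.9876 to 0.9907, and that between the groups 0.9506 to 0.9628. Cd4 was at 9.60 and 9.22 on the unstimulated and 9.48, 9.63 and 9.86 on the continuous arrays, while Cd8a stayed between 5.34 and 5.92, so the labelled lineage was borne out by both genes. Markers of myeloid cells were higher on the first array of each group: the mean log2 value of 20 measured markers was 8.39 and 6.66 on the unstimulated and 8.65, 6.17 and 6.59 on the continuous arrays. Lyz2, which encodes the lysozyme of macrophages, was at 11.47 and 8.05 against 10.69, 5.30 and 6.27. Of the 20 myeloid markers 0 passed limma's test between the groups (1 had an unadjusted p below 0.05), and neither did 15 of 16 B cell markers (the exception was Cd72, lower in continuous cells by 2.35 log2 units), whereas the myeloid content within each group differed from array to array. The difference between the 3′ and the 5′ probe sets for GAPDH, a sign of RNA or amplification quality, was 2.24 and 2.16 log2 units on the unstimulated and 1.66, 1.56 and 1.44 on the continuous arrays, and these ranges did not overlap. The beta-actin difference did not overlap either: 0.67 and 0.98 on the unstimulated and 0.40, 0.62 and 0.40 on the continuous arrays. It was used as a covariate in an alternative fit. Because it differed between the groups, that fit cannot separate the part of RNA quality from the comparison. Because the samples are bulk RNA, a lower level can mean fewer cells with a transcript or less of it per cell, and these cannot be told apart.

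Continuously stimulated cells differed from unstimulated cells in a large part of the measured transcriptome, and the largest differences were rises. With the moderated test of limma at a Benjamini-Hochberg adjusted p below 0.05, 1229 genes (9.92% of those tested) were higher and 1341 (10.8%) were lower in continuous cells, together 20.7%. Of these, 574 (4.63%) were higher and 474 (3.82%) lower by at least 2-fold, 233 and 72 by at least 4-fold, and 61 and 5 by at least 16-fold. The median change of the genes called higher was 0.95 log2 units, that of the genes called lower −0.83, and that of all genes −0.02. The counts rested on the small unstimulated group: without its first array, 733 genes were higher and 747 lower, and without its second array 738 and 623. In a fit of all 28 arrays, day 2 included, 241 were higher and 88 lower. That fit held the third unstimulated arrays of day 2, whose medians over all probe sets were low (4.83 and 4.97). When 1 CD4 unstimulated array of day 5 was left out, the remaining array was assumed to vary like those of the other groups.

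**Figure D1:**
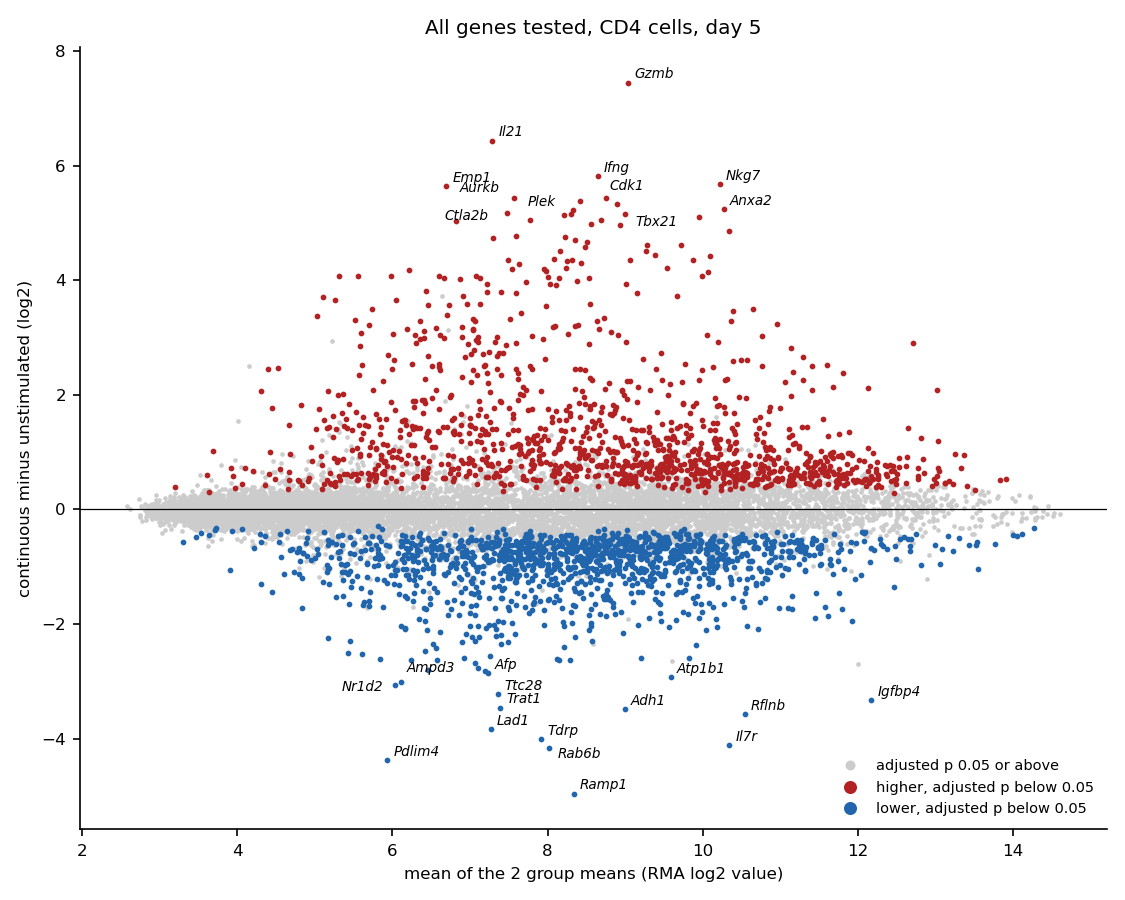
Difference between the continuous and unstimulated groups (y axis, log2 units) against the mean of the 2 group means (x axis, RMA log2 value) for each of 12393 genes. Red and blue points passed an adjusted p of 0.05, and most of the genes named by size of change are labelled. The largest rise (Gzmb, 7.45) exceeded the largest fall (Ramp1, −4.96).

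The gene lists that describe T cell biology moved to very different degrees. The 2 cell cycle lists had every measured member called higher, and a list of S100, annexin and galectin genes 13 of 17. Lists of inhibitory receptors with some ligands, granule genes and follicular helper genes had about as many members called higher as not. Quiescence and naive cell factors stood at the opposite end, with 11 of 21 members lower and 0 higher. Lists of ribosome biogenesis genes (1 higher and 2 lower of 32) and T cell receptor signal reporters (2 higher of 18) had shares near or below those of all genes.

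**Figure D2:**
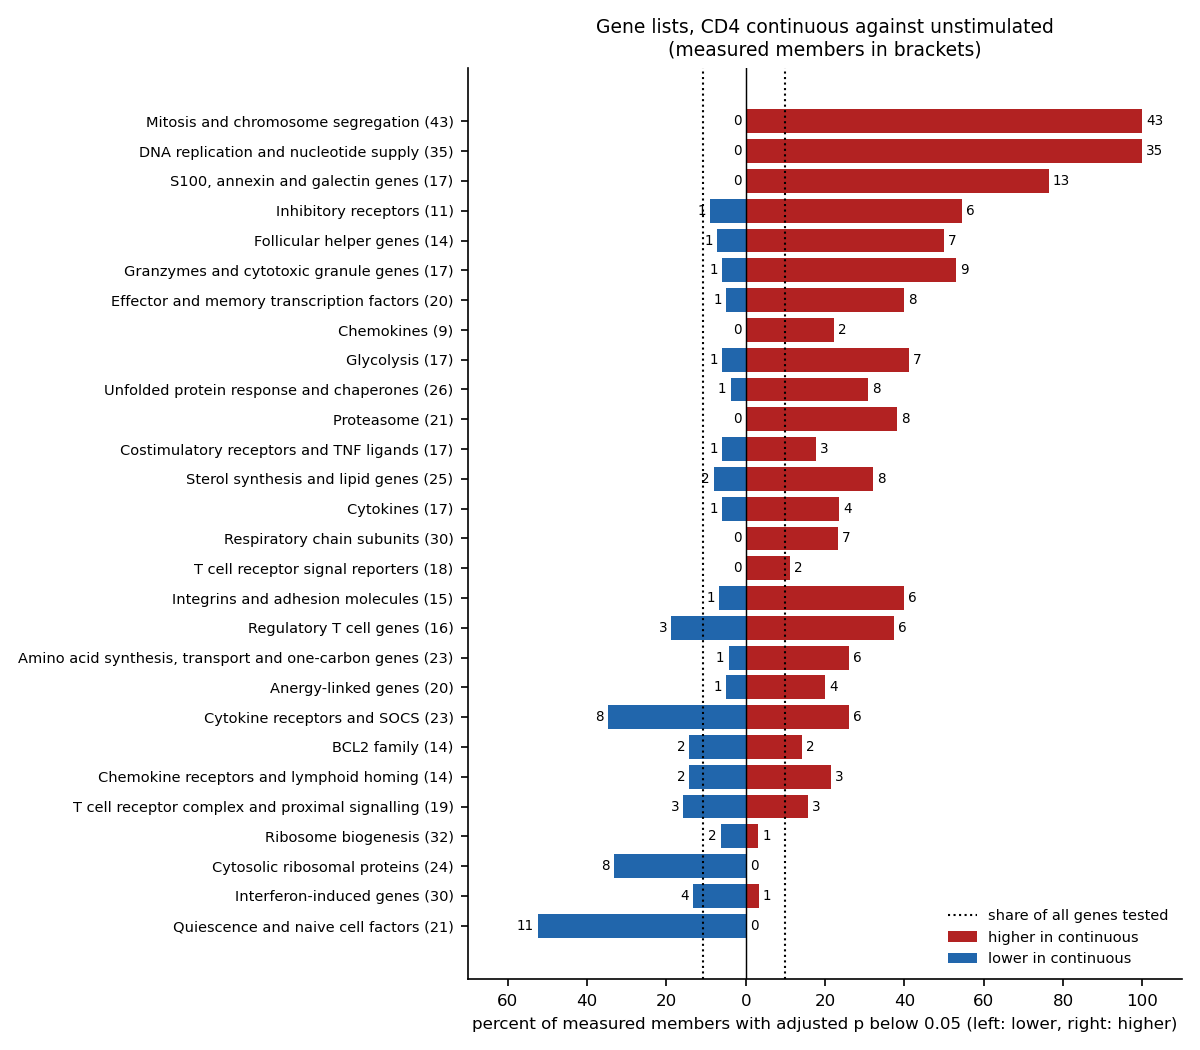
Percent of each list's measured members (number in brackets) called higher (red, right) or lower (blue, left) in continuous cells, with the number called beside each bar. Dotted lines mark the shares over all genes tested, 9.92% higher and 10.8% lower. Both cell cycle lists reach 100%, and the quiescence list extends furthest to the left.

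The cell cycle was the most uniform of the differences. All 43 measured genes of mitosis and chromosome segregation and all 35 of DNA replication and nucleotide supply were higher in continuous cells, with medians of 3.80 and 1.85 log2 units against −0.02 for all genes. Every one of these 78 members also had continuous arrays that lay entirely above both unstimulated arrays, which was so for 23.2% of all genes. Cdk1, the kinase that drives entry into mitosis, was at 6.78 and 5.28 on the unstimulated arrays and at 11.81, 10.98 and 11.61 on the continuous arrays. It rose by 5.43 log2 units (SE 0.67, adjusted p = 8.92e-05), or 43.3-fold. Mki67, which encodes the proliferation antigen Ki-67, was at 8.02 and 6.80 against 11.91, 11.68 and 12.49, a rise of 4.62 (SE 0.55, adjusted p = 7.73e-05). Aurkb, a kinase of the chromosomal passenger complex, and Birc5, its partner survivin, rose by 5.43 and 5.14. Ube2c, which feeds ubiquitin to the anaphase-promoting complex, rose by 5.38, and the mitotic cyclins Ccna2 and Ccnb2 rose by 5.33 and 5.16. The first unstimulated array was above the second for Cdk1, Aurkb, Ube2c, Ccna2, Ccnb2, Birc5 and Mki67. That array also carried more myeloid marker signal, and a link between the 2 was not tested. With 1 array left out, 41 to 43 of the mitosis genes and 31 to 35 of the replication genes were called.

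The changes of the replication genes differed in size. Rrm2, the regulated subunit of ribonucleotide reductase, was at 7.93 and 6.88 on the unstimulated and 12.64, 12.27 and 12.60 on the continuous arrays, a rise of 5.10 (SE 0.55, adjusted p = 3.6e-05). Tk1, the thymidine kinase of S phase, rose by 4.35, and Cdc6, which loads the replicative helicase onto origins, by 4.15. E2f8, a repressor of late S phase that is itself a cell cycle gene, rose by 4.57, and Uhrf1, which guides maintenance methylation behind the fork, by 3.94. The helicase subunits of the Mcm family rose less (0.95 for Mcm7, or 1.45 as the mean of its 4 probe sets, to 2.53 for Mcm5), as did Pcna, the sliding clamp (0.96). Even the small differences lay outside the spread of the arrays: Pcna was at 12.88 and 12.89 on the unstimulated and at 13.86, 13.75 and 13.91 on the continuous arrays. The mitosis and replication genes thus shared their direction but spanned changes from 0.56 (Cdt1) to 5.43.

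**Figure D3:**
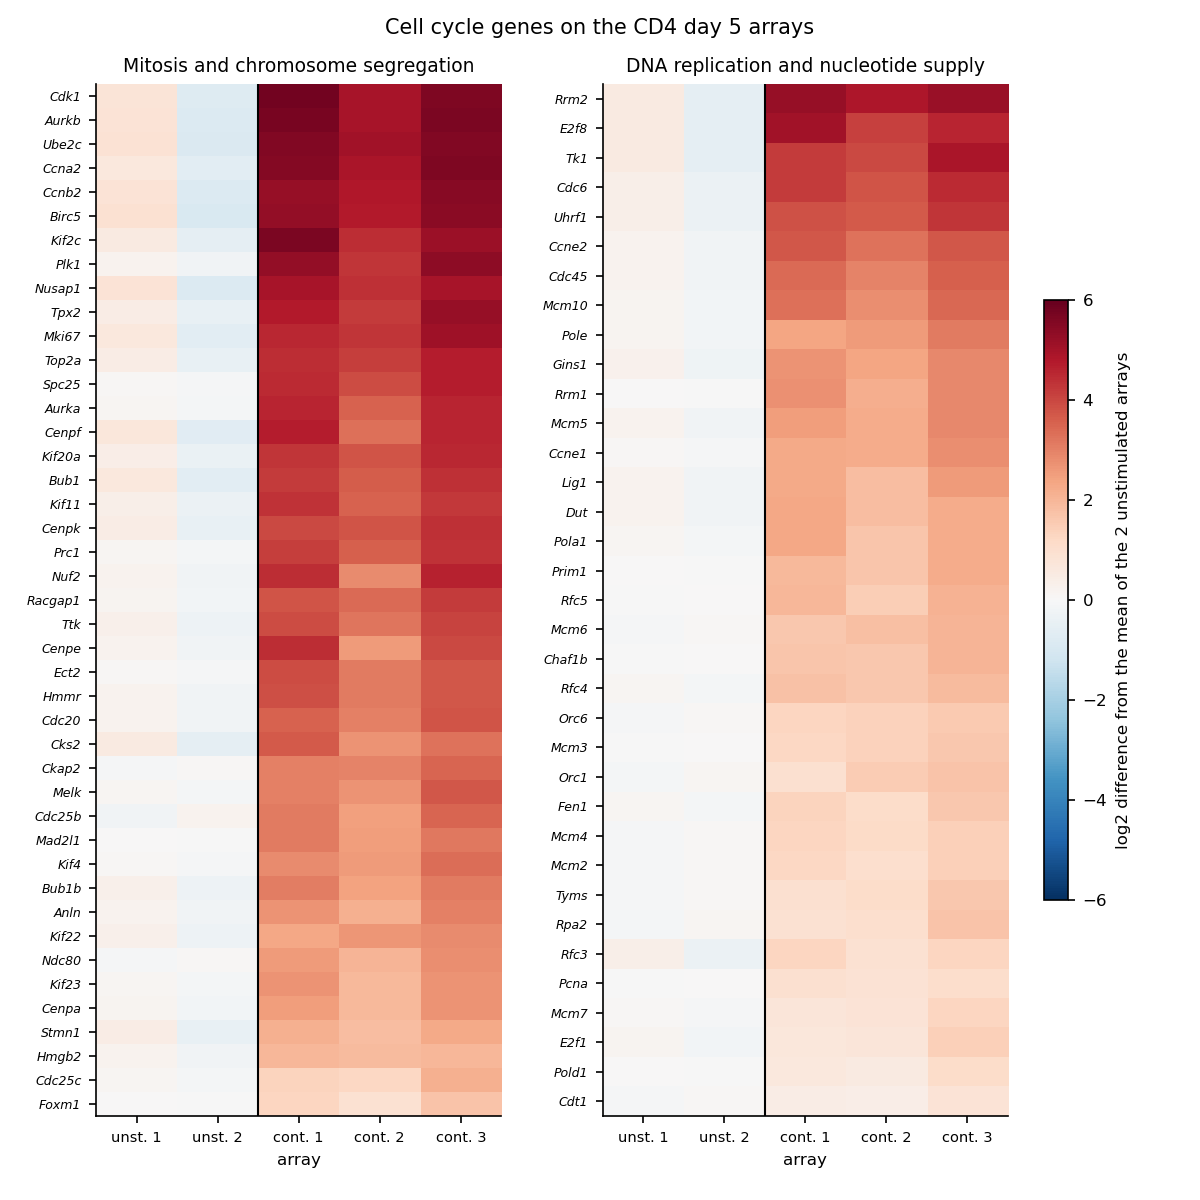
Each cell is the log2 difference of 1 array from the mean of the 2 unstimulated arrays, for 43 mitosis genes (left) and 35 replication genes (right) ordered by their change. All 78 genes are red on the 3 continuous arrays, deepest for Cdk1, Aurkb and Ube2c, and the first unstimulated array is slightly above the second for the top mitosis genes.

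Because the mitosis and replication genes moved together, their promoters were read for the short elements known from cell cycle genes. RefSeq windows (GRCm38.p6, 250 bases before to 50 after the start) matched 9882 of the tested genes, and 8 motif sets were searched on both strands. The cell cycle genes homology region, TTTGAA, lay in the windows of 26 of 36 mitosis genes (72.2%) against 15.4% of all tested genes and 12.9% of replication genes. CCAAT, the core of the box read by NF-Y, lay in 28 of 36 (77.8%) against 42.3%. A set of E2F elements (TTTCCCGC, TTTGGCGC, TTTCGCGC or TTTGCCGC) lay in 12 of 31 replication genes (38.7%) against 4.07% of all genes and 1 of 36 mitosis genes. Over all 1008 genes called higher that had a window, TTTGAA was found in 19.2% and the E2F set in 8.33%; over 1101 called lower, in 12.7% and 3.18%. A match describes the letters of the window and is not evidence of binding. The 250 bases before the start are shown for 3 mitosis genes that hold both TTTGAA and CCAAT and for 2 replication genes that hold an E2F element, on the coding strand. They lie at chr10:69352913-69353162 (Cdk1, minus strand), chr2:164769679-164769928 (Ube2c, plus), chr9:70421555-70421804 (Ccnb2, minus), chr11:98907901-98908150 (Cdc6, plus) and chr17:56304063-56304312 (Uhrf1, plus). Capitals mark TTTGAA and CCAAT or their reverse complements in the first 3 and the E2F element in the last 2.
Cdk1: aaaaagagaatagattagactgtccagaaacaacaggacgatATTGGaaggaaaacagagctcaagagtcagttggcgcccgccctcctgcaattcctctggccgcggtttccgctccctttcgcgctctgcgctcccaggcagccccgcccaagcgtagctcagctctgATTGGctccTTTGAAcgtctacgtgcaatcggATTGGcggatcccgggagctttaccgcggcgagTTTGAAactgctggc
Ube2c: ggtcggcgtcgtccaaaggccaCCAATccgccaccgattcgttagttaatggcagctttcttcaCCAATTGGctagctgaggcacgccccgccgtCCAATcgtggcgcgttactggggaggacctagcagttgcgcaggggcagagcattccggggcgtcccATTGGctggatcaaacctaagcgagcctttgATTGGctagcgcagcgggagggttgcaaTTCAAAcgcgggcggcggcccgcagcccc
Ccnb2: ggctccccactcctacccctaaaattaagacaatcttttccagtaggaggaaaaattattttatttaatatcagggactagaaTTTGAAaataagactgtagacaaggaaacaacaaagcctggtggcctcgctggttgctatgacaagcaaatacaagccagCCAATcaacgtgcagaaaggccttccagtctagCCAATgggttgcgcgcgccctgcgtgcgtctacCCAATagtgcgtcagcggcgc
Cdc6: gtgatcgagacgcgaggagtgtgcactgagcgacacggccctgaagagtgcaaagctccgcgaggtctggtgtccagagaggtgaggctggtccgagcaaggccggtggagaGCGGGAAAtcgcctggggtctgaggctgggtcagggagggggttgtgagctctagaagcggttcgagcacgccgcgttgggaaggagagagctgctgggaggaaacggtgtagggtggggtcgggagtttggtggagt
Uhrf1: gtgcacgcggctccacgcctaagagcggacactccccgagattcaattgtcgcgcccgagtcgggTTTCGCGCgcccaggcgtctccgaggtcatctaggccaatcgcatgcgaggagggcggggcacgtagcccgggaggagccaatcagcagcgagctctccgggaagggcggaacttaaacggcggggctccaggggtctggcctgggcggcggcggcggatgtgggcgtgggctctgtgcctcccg
In Cdk1 and Ube2c, the marked element nearest the start was TTTGAA, at −15 and −29, with CCAAT elements farther from the start. The Cdk1 bases also hold TTTCGCGC of the E2F set, left in lower case. Cdk1 was thus the 1 mitosis gene with an element of that set. In Ccnb2 the nearest element was a CCAAT, at −21. The single E2F element lay at −138 in Cdc6 and at −185 in Uhrf1.

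Cytotoxic granule genes held the largest single difference. Of 17 measured granule genes, 9 were higher and 1 was lower (Ctsl, by 1.18), beside 9.92% and 10.8% of all genes. The median was 0.73. Gzmb, which encodes granzyme B, was at 5.00 and 5.61 on the unstimulated and at 13.26, 12.71 and 12.31 on the continuous arrays. The group means were 5.31 ± 0.44 (SD, n = 2) and 12.76 ± 0.48 (SD, n = 3), a rise of 7.45 log2 units (SE 0.77, adjusted p = 2.77e-05) or 175-fold. Nkg7, a granule membrane protein, was at 7.11 and 7.64 against 13.21, 13.02 and 12.96 and rose by 5.69 (SE 0.15, adjusted p = 6.99e-11). Gzmk, another granzyme, rose by 4.51, from 6.66 and 7.36 to 11.24, 11.54 and 11.78. Gzma rose by 4.98, although its call was lost on leaving out either unstimulated array (4.89 without the first). With the beta-actin covariate its change was 3.15 without a call. Prf1, the pore-forming perforin through which granzymes enter a target, was at 8.27 and 8.00 on the unstimulated and 7.47, 7.04 and 7.48 on the continuous arrays. The 3 continuous arrays were below both unstimulated ones for Prf1, but the difference of −0.80 did not pass the test (adjusted p = 0.24). Among the receptors shared with killer cells, Klrc1 (NKG2A) rose by 2.06 (1.05 as the mean of its 2 probe sets), while Klrd1 and Klrk1 differed by 0.46 and 0.25 without a call. With 1 array left out, 5 to 9 granule genes were called higher.

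Cytokine genes changed selectively. Of 17 measured cytokines, 4 were higher and 1 was lower, beside 9.92% and 10.8% of all genes. Il21, a cytokine of helper cells that acts on B and CD8 T cells, was at 4.06 and 4.08 on the unstimulated arrays and at 10.66, 10.93 and 9.94 on the continuous arrays. It rose by 6.44 (SE 0.30, adjusted p = 6.68e-08), or 86.8-fold. Ifng, which encodes the type 1 cytokine interferon-gamma, was at 5.44 and 6.04 against 12.48, 11.69 and 10.51, 5.83 log2 units higher (SE 0.69, adjusted p = 7.1e-05). Il10, which encodes a suppressive cytokine, was at 3.19 and 3.49 against 7.70, 6.49 and 5.97 and rose by 3.38. Lif rose by 2.48 (1.29 as the mean of its 2 probe sets), and Ltb, the lymphotoxin subunit made by resting lymphocytes, fell by 1.70. In contrast Il2, the growth factor made early after activation, was at 5.03 and 4.83 against 5.37, 5.68 and 5.13, and its difference of 0.46 did not pass the test (adjusted p = 0.545). Il4, Il5, Il13 and Il17a, cytokines of other helper lineages, differed by 0.23, 0.01, 0.00 and 0.26 log2 units, and none passed the test. Of 9 measured chemokines 2 rose, Ccl5 by 4.15 (7.69 and 8.29 against 12.41, 11.57 and 12.45) and Ccl4 by 3.98 (6.25 and 6.53 against 11.51, 10.08 and 9.53). Ccl3, which lies beside Ccl4 in its cluster, was at 5.07 and 4.49 against 9.96, 7.90 and 7.65, but with a difference of 3.72 it did not pass the test (adjusted p = 0.114).

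**Figure D4:**
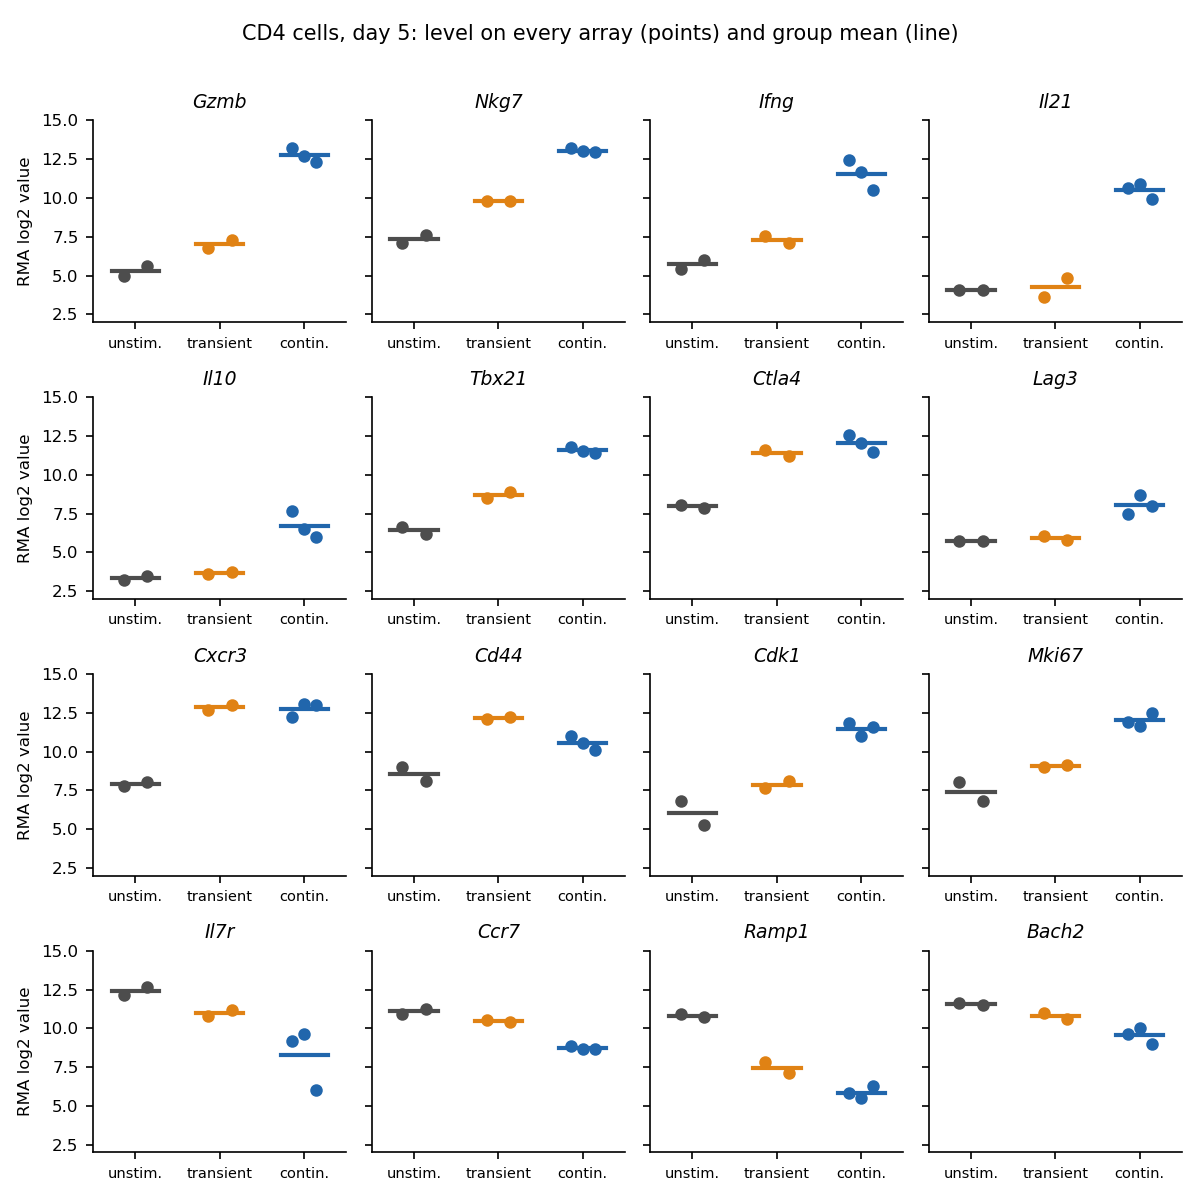
RMA log2 values of 16 genes on every CD4 array of day 5 (points) with group means (lines) for unstimulated (2 arrays), transiently stimulated (2) and continuously stimulated (3) cells. The continuous arrays lie above both unstimulated arrays for the first 12 genes and below them for Il7r, Ccr7, Ramp1 and Bach2. The transient arrays are level with the continuous ones for Cxcr3, and for Il21, Il10 and Lag3 they lie near the unstimulated ones.

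Of 20 measured effector and memory transcription factors, 8 were higher and 1 was lower, beside 9.92% and 10.8% of all genes. The median was 0.67. Tbx21, which encodes T-bet, was at 6.63 and 6.19 on the unstimulated and at 11.80, 11.53 and 11.41 on the continuous arrays, a rise of 5.16 (SE 0.40, adjusted p = 2.73e-06). Bhlhe40, a factor induced by activation, rose by 4.05, Hopx by 2.81, Hif1a by 1.43 and Batf by 1.30. Irf4, whose level is known to follow T cell receptor strength, was at 8.13 and 8.08 against 11.10, 11.73 and 9.67 and rose by 2.73 (1.71 as the mean of its 2 probe sets). Irf8 rose by 2.25, a call that was lost without the second unstimulated array (adjusted p = 0.16). Maf, an activator of Il21 and Il10 transcription, rose by 0.82. Eomes, the T-box relative of T-bet, went the other way: it was at 7.66 and 7.93 against 6.02, 6.97 and 5.95 and fell by 1.48 (adjusted p = 0.055 without the second unstimulated array). Prdm1, the gene of Blimp-1, was higher on all 3 continuous arrays, by 1.80, but did not pass the test (adjusted p = 0.0691). Gata3, Bcl6, Tox, Runx3 and Myc differed by −0.40, 0.17, −0.23, −0.09 and −0.42, and none passed it.

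Of 11 measured genes in a list of inhibitory receptors and some ligands, 6 were higher and 1 was lower, beside 9.92% and 10.8% of all genes. The median change was 1.38. Ctla4, which competes with CD28 for its ligands, was at 8.04 and 7.88 on the unstimulated and 12.54, 12.06 and 11.49 on the continuous arrays, a rise of 4.07 (SE 0.35, adjusted p = 8.08e-06). Lag3, a receptor for MHC class II, rose by 2.31, from 5.73 and 5.76 to 7.48, 8.71 and 8.00. Cd160 rose by 2.46 and Cd200, a ligand that restrains myeloid cells, by 1.79. Havcr2, which encodes TIM-3, rose by 3.09, from 4.21 and 3.90 to 7.51, 7.79 and 6.14; its call was lost on leaving out any of 4 arrays (adjusted p up to 0.18, without the second unstimulated array). Pdcd1, the gene of PD-1, was at 8.34 and 7.33 against 8.72, 9.29 and 9.62, and just missed the threshold (difference 1.38, adjusted p = 0.0503); it was called without the first array of both groups (2.13). The gene of its ligand PD-L1, Cd274, was lower by 1.02. The counts of this list changed when single arrays were left out. With the beta-actin covariate 5 of its members were called higher and 0 lower.

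Costimulatory receptors and TNF family ligands changed less (3 higher and 1 lower of 17, median 0.36), beside 9.92% higher and 10.8% lower of all genes. Icos, the costimulator of helper cells, rose by 1.52 (without the second unstimulated array its adjusted p lay just past the threshold, at 0.05), and Slamf1 rose by 1.41. Tnfrsf4, which encodes OX40, rose by 0.92, and its call was lost on leaving out any of 4 arrays (0.78 without the second unstimulated array). Tnfrsf9, which encodes 4-1BB, was at 10.84 and 10.11 on the unstimulated and at 9.52, 9.86 and 9.75 on the continuous arrays, a difference of −0.77 that did not pass the test (adjusted p = 0.0521). Cd40lg, the helper signal to B cells, differed by −0.12 (adjusted p = 0.678). Cd86, a B7 ligand also carried by antigen-presenting cells, was lower by 1.96, with an adjusted p of 0.10 without the first unstimulated array.

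Cytokine receptors split in both directions, with 6 of 23 higher and 8 lower, beside 9.92% and 10.8% of all genes. Il7r, the receptor chain through which resting T cells receive IL7, was at 12.15 and 12.65 on the unstimulated and at 9.18, 9.65 and 6.01 on the continuous arrays. It fell by 4.12 log2 units (SE 0.78, adjusted p = 0.00197), and the third continuous array was more than 3 units below the other continuous arrays. The IL6 receptor chains Il6ra and Il6st fell by 2.09 and 1.74, the TGF-beta receptors Tgfbr2 and Tgfbr1 by 1.94 and 1.05, and Il4ra by 1.31. Of the 6 members that rose, 4 belong to the IL18 and IL12 receptors. Il18rap was at 5.80 and 5.39 against 8.78, 8.58 and 8.46 and rose by 3.01, and its partner Il18r1 rose by 1.97 (adjusted p = 0.07 without the first unstimulated array). Il12rb1 and Il12rb2 rose by 1.31 and 0.86, and Il10ra by 2.07. Il2ra, the high-affinity chain of the IL2 receptor, rose by 1.87, from 4.93 and 5.17 to 7.26, 7.41 and 6.09 (adjusted p = 0.07 without the first unstimulated array). As the mean of a gene's probe sets the changes were −1.32 for Il6ra, −1.06 for Il6st, −0.79 for Tgfbr2, −0.42 for Tgfbr1, −0.76 for Il4ra and 0.79 for Il10ra, each still called. With 1 array left out, 2 to 5 of these receptors were called higher and 3 to 8 lower.

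Chemokine receptors differed in both directions. Ccr7, the receptor that guides T cells into lymph nodes, was at 10.93 and 11.25 on the unstimulated and at 8.86, 8.65 and 8.67 on the continuous arrays, a fall of 2.36 (SE 0.33, adjusted p = 0.000211). S1pr1, needed for exit from lymph nodes, fell by 1.01, but its call was lost on leaving out either unstimulated array (−0.96 without the second). Cxcr3, the receptor for interferon-induced chemokines, rose by 4.86 (7.79 and 8.02 against 12.24, 13.07 and 12.98; SE 0.29, adjusted p = 4.49e-07). Cxcr6 rose by 3.00 and Cxcr4 by 1.73. Cxcr5, the receptor that takes helper cells towards B cell follicles, was at 6.20 and 6.01 against 6.13, 9.20 and 7.88, so that the groups overlapped and the difference of 1.63 did not pass the test (adjusted p = 0.262). In all, 3 of 14 chemokine receptors and homing genes were higher and 2 lower, beside 9.92% and 10.8% of all genes.

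Adhesion and calcium-binding membrane genes held some of the largest rises. Among 15 integrins and adhesion molecules 6 were higher and 1 was lower, beside 9.92% and 10.8% of all genes. With the beta-actin covariate 5 were called higher and 1 lower. The lower member was Itga6, by 0.93, and its call was lost without the second unstimulated array (−0.79). Alcam, a ligand of CD6, rose by 3.77, from 5.63 and 5.78 to 9.50, 9.73 and 9.20, and Itga4, the alpha chain of VLA-4, by 1.80. Itgb1, its beta chain, rose by 1.54 (adjusted p = 0.068 without the second unstimulated array). Cd44, the hyaluronan receptor used to mark antigen-experienced cells, was at 9.01 and 8.09 against 10.97, 10.53 and 10.13 and rose by 2.00 (SE 0.47, adjusted p = 0.00771; 0.12 without the second unstimulated array). Of 17 S100, annexin and galectin genes, 13 were higher and 0 lower, with a median of 1.75. With the beta-actin covariate 9 were called higher. Anxa2, a calcium-dependent membrane-binding protein, rose by 5.25 (8.10 and 7.20 against 12.91, 12.81 and 12.97), and its partner S100a10 by 1.20. As the mean of 3 probe sets, 1 of which differed by 0.01, Anxa2 changed by 2.06 (adjusted p = 4.16e-05), and Itgb1 by 1.02 as the mean of 6. S100a6 rose by 4.61 and S100a4 by 3.73, both small calcium-binding proteins. Lgals1, the gene of galectin-1, was at 11.16 and 11.34 against 14.00, 14.17 and 14.31 and rose by 2.91. Lgals3 rose by 4.21, but its call was lost on leaving out any of 4 arrays (3.37 without the second unstimulated array). Several genes of this list are also expressed by myeloid cells. Of 20 myeloid markers 0 passed the test between the groups. Their mean varied widely within groups (8.39 and 6.66 on the unstimulated, 8.65, 6.17 and 6.59 on the continuous arrays). With that spread, 2 against 3 arrays cannot show whether the myeloid content was alike. Without the first array of each group, where those markers were high, 9 of the 17 were called higher.

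Factors of quiescent and naive T cells were lower. Of 21 measured members 11 were lower and 0 higher, beside 10.8% and 9.92% of all genes. The median was −0.88. Igfbp4, a secreted binding protein abundant in naive T cells, was at 13.73 and 13.94 on the unstimulated and at 11.44, 11.00 and 9.09 on the continuous arrays, a fall of 3.32 (SE 0.55, adjusted p = 0.000772). Bach2, a repressor of effector programmes, fell by 2.03, from 11.63 and 11.53 to 9.65, 10.01 and 9.00. Its call was lost on leaving out any of 3 arrays (−1.97 without the first unstimulated array). Lef1, a partner of beta-catenin in naive cells, fell by 1.57, Foxp1 by 1.45 and Tsc22d3, the glucocorticoid-induced zipper protein, by 1.46. Each lost its call without 1 unstimulated array, the first for Lef1 (−1.34) and Foxp1 (−1.32) and the second for Tsc22d3 (−1.17). Foxo1, which maintains Il7r and Ccr7 transcription, fell by 1.08 (−0.67 as the mean of its 4 probe sets). Klf2, another Foxo1 target and a factor of S1pr1 transcription, was at 11.86 and 12.13 against 11.72, 11.59 and 11.88; the groups overlapped, and the difference of −0.27 did not pass the test (adjusted p = 0.438). With 1 array left out 4 to 11 members were called lower, and 6 were with the beta-actin 3′ to 5′ difference as a covariate.

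The largest falls outside these lists were in genes of diverse function. Ramp1, which forms the receptor for calcitonin gene-related peptide, was at 10.91 and 10.72 on the unstimulated and at 5.81, 5.50 and 6.27 on the continuous arrays, a fall of 4.96 (SE 0.61, adjusted p = 8.92e-05) or 31.1-fold. Pdlim4, a cytoskeletal adaptor, fell by 4.38 to values between 3.65 and 3.79. Rab6b, a small GTPase of vesicle traffic, fell by 4.16, Tdrp by 4.01 and Lad1, an anchoring filament protein, by 3.83. Rflnb, a filamin-binding protein, fell by 3.57, the alcohol dehydrogenase Adh1 by 3.48 and Ttc28 by 3.22. Trat1, an adaptor that stabilises the T cell receptor at the surface, was at 9.02 and 9.21 against 5.28, 6.34 and 5.35 and fell by 3.46. Nr1d2, a haem-binding repressor of the circadian clock, fell by 3.06, the AMP deaminase Ampd3 by 3.02, the sodium pump subunit Atp1b1 by 2.92 and Afp, the alpha-fetoprotein gene, by 2.86. As the mean of their probe sets the falls of Nr1d2 and Afp were smaller, −1.51 and −1.66; 1 of the 2 probe sets of Nr1d2 differed by 0.04 without a call. The 3 continuous arrays lay below both unstimulated arrays for each of these genes because the rule that named them required it. That was so for 26.2% of all genes. Among the largest rises outside the lists were Emp1, a tetraspan membrane protein (5.65; 4.21 and 3.53 against 9.99, 9.02 and 9.54), Plek, the protein kinase C substrate pleckstrin (5.22), and Ctla2b, a cathepsin inhibitor (5.17). Gja1, the gap junction protein connexin 43, rose by 3.71 and Tgfb3, a TGF-beta ligand, by 4.19.

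Metabolic genes moved in part, and the counts that follow stand beside 9.92% higher and 10.8% lower of all genes. Of 17 glycolysis genes 7 were higher and 1 lower, with a median of 0.54. Hk2, the inducible hexokinase, was at 6.45 and 5.67 on the unstimulated and at 8.72, 9.30 and 8.37 on the continuous arrays and rose by 2.73. Tpi1 rose by 2.25, Pfkp by 1.45, Pkm by 1.41 and Ldha by 0.72, while Pdk1, a kinase that inhibits pyruvate dehydrogenase, fell by 1.70. The glucose transporters Slc2a1 and Slc2a3 differed by −0.06 and −0.53 and did not pass the test. In sterol synthesis and lipid genes 8 of 25 were higher and 2 lower. Cyp51, Fdft1, Idi1 and Lss, enzymes of cholesterol synthesis, rose by 1.56, 1.23, 1.16 and 0.94, and the cholesterol exporters Abca1 and Abcg1 fell by 2.35 and 1.63. The sterol count depended on the arrays used: 3 to 9 members were called higher with 1 array left out, and 1 without the first array of both groups. Idi1 lost its call without the first unstimulated array (adjusted p = 0.14). Asns, the asparagine synthetase, rose by 2.69 and Psat1, of serine synthesis, by 1.34, among 6 of 23 amino acid genes called higher. Ddit3, a stress factor of the same pathway, fell by 1.27. Among respiratory chain subunits 7 of 30 were higher (median of all 30, 0.23), among proteasome subunits 8 of 21 (0.41) and among genes of the unfolded protein response 8 of 26, with 1 lower (0.43). With 1 array left out 2 to 8, 3 to 6 and 1 to 5 were called higher, and without the first array of both groups 2, 2 and 1. For the proteasome gene Psma1 1 probe set was called higher and another lower. As the mean of a gene's probe sets the changes of Cyp51, Fdft1, Lss and Abca1 were 0.78, 0.81, 0.02 and −0.91, and that of Lss was no longer called (adjusted p = 0.937).

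Genes of the protein synthesis machinery did not follow the cell cycle genes. Of 32 ribosome biogenesis genes 1 was higher (Wdr12, by 0.55) and 2 were lower, with a median of −0.18. The lower members were Utp20 (−0.77) and Mybbp1a (−0.84). Calls were lost on leaving out any of 3 arrays for Wdr12 and any of 4 for Utp20 and for Mybbp1a. Wdr12 and Mybbp1a also lost them as the mean of their probe sets (adjusted p = 0.692 and 0.186). Of 24 cytosolic ribosomal proteins 8 were lower and 0 higher, beside 10.8% and 9.92% of all genes. The median was −0.29. Rps24 was at 13.52 and 13.55 on the unstimulated and at 12.38, 12.83 and 12.56 on the continuous arrays and fell by 0.95 (SE 0.19, adjusted p = 0.00357), and Rps19 fell by 0.73. All 3 continuous arrays were below both unstimulated arrays for these 2 genes. Between 2 and 8 of these proteins were called lower with 1 array left out, and 0 without the first array of both groups.

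Interferon-induced genes were lower on average, and few passed the test. Of 30 measured members 1 was higher and 4 were lower, with a median of −0.44, so the share lower was close to that of all genes. Oas2, an antiviral synthetase, was at 9.73 and 9.14 on the unstimulated and at 7.06, 7.66 and 5.73 on the continuous arrays and fell by 2.62. Ifit3, an inhibitor of viral translation, was at 11.25 and 10.99 against 8.54, 9.75 and 7.28 and fell by 2.60. Oasl2 fell by 2.41 and Ifit2 by 0.90. All 4 calls were lost on leaving out 1 array. This held for any of 4 arrays for Ifit3, any of 3 for Oasl2 and for Ifit2, and the first unstimulated array for Oas2. Gbp3, a guanylate-binding protein induced by interferon-gamma, went the other way, from 9.04 and 9.30 to 11.88, 11.34 and 11.13, a rise of 2.28 (SE 0.38, adjusted p = 0.000853). The promoters of Ifit3 and Gbp3 are shown as examples that hold the interferon-stimulated response element. The element was taken as GAAA and GAAA spaced by any 2 bases, searched on both strands. That element lay in 12 of 24 interferon-induced genes with a window (50.0%) and in 3.85% of all. The windows are at chr19:34583279-34583528 (Ifit3, plus strand) and chr3:142559794-142560043 (Gbp3, plus), GRCm38.p6 from RefSeq, and capitals mark the element or its reverse complement.
Ifit3: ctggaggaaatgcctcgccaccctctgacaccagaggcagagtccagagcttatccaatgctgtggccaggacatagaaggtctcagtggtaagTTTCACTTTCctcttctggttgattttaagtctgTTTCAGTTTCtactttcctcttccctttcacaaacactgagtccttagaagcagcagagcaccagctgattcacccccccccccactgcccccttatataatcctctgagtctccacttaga
Gbp3: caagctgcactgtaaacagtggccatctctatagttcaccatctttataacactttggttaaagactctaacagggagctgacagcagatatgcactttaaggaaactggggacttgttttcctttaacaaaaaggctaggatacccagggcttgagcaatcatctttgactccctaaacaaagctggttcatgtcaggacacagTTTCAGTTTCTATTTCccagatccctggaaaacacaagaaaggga
Ifit3 held 2 elements, at −156 and −122 from the start, and Gbp3 held 2 that overlap, at −45 and −39.

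Lists tied to named helper states were mixed. Of 14 follicular helper genes 7 were higher and 1 was lower, with a median of 1.21: besides Il21, Icos, Cd200 and Maf, Pou2af1 rose by 2.09, Slamf6 by 1.25 and Sh2d1a, the adaptor SAP, by 1.17. The call of Pou2af1 was lost on leaving out any of 4 arrays. Bcl6, the defining repressor of follicular helper cells, was at 8.53 and 8.04 on the unstimulated and at 7.96, 8.75 and 8.65 on the continuous arrays and did not pass the test (0.17, adjusted p = 0.865). Of 16 regulatory T cell genes 6 were higher (3 with the beta-actin covariate) and 3 lower (2 with it). The higher ones included Nrp1 (7.19 and 7.35 against 10.73, 10.26 and 10.13, a rise of 3.10). Entpd1, the ectoenzyme CD39, was also higher (2.54, or 1.69 as the mean of its 2 probe sets), but its call was lost on leaving out any of 4 arrays. The lower ones were Gpr83 (2.31 lower), Ikzf4 (2.23 lower, with −1.16 as the mean of its 2 probe sets) and Foxp3 itself, which fell by 1.07, from 5.93 and 6.05 to 4.74, 5.29 and 4.70 (adjusted p = 0.073 without the second unstimulated array). Of 20 genes linked to anergy 4 were higher and 1 lower (Tle4, by 0.94; adjusted p = 0.082 without the second unstimulated array, and 0.0974 as the mean of its 2 probe sets). Over all genes the shares were 9.92% higher and 10.8% lower. Rnf128, the ubiquitin ligase GRAIL, Nt5e, which encodes CD73, and Izumo1r, which encodes FR4, differed by 0.65, 0.20 and −0.15 without a call.

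Of 18 measured reporters of T cell receptor signalling 2 were higher and 0 lower, a share close to that of all genes. Nfatc1, whose short isoform is induced by calcium signalling, was at 9.41 and 9.34 on the unstimulated and 11.01, 11.24 and 11.23 on the continuous arrays, a rise of 1.78 (SE 0.17, adjusted p = 1.35e-05). Spry1, a feedback inhibitor of the Ras pathway, rose by 2.09 (adjusted p = 0.059 without the second unstimulated array). Nr4a1, the gene of Nur77, was at 10.09 and 9.62 against 9.76, 9.93 and 8.23, and the difference of −0.55 did not pass the test (adjusted p = 0.545). Egr2 was at 10.25 and 9.86 against 11.55, 11.34 and 10.41, higher on all 3 continuous arrays but without a call (1.04, adjusted p = 0.13), and Egr3 differed by −0.10. Fosb was at 5.14 and 5.17 against 11.04, 7.94 and 5.88, a difference of 3.13 without a call (adjusted p = 0.0926) and a wide spread within the continuous group.

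The series also holds 2 arrays of CD4 cells stimulated in culture for 2 days and then kept for 3 days in an antigen-free host, called transient. They share the culture stimulus with the continuous cells and the kind of host with the unstimulated cells. Comparisons with them reuse the continuous or the unstimulated arrays, so the values are set side by side and not counted as separate evidence. Continuous cells were higher than transient cells in 2182 genes (17.6%) and lower in 2042 (16.5%), and transient cells were higher than unstimulated cells in 1197 (9.66%) and lower in 1624 (13.1%). The second of these counts was 2821 genes in both directions together, and 1671 or 1748 without the first or the second unstimulated array. Both transient arrays carried more B cell transcript than the 5 arrays above: Ms4a1, the CD20 gene, was at 12.85 and 11.12, against 5.03 to 7.33. Their Cd4 values of 7.68 and 7.88 were below those of both other groups, and their beta-actin 3′ to 5′ differences (2.73 and 2.42) were above the 0.40 to 0.98 of the other 5 arrays. The part of these features in the following values was not tested.

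Over the 3 groups, the changed genes fell into several patterns. The mitosis genes were higher in continuous than in transient cells in 43 of 43 cases, with a median of 2.73, and higher in transient than in unstimulated cells in 10 of 43, with a median of 1.17. For Cdk1 the transient arrays were at 7.64 and 8.11, above the unstimulated and well below the continuous arrays. Il21 (3.65 and 4.85), Il10 (3.60 and 3.71), Lag3 (6.07 and 5.81) and Gzmk (6.65 and 6.82) were near their unstimulated levels in transient cells, and each was lower there than in continuous cells (log2 differences of 6.26, 3.07, 2.12 and 4.78, each with an adjusted p below 0.05). Nkg7 (9.79 and 9.83) and Tbx21 (8.48 and 8.88) lay between the groups and differed from both. Cxcr3 (12.71 and 12.99), Ctla4 (11.58 and 11.23) and Ctla2b (9.55 and 9.52) were about as high in transient as in continuous cells, with differences of −0.09, 0.62 and 0.53 that did not pass the test. Cd44 was higher in transient than in continuous cells (12.09 and 12.20, a difference of −1.60, adjusted p = 0.016), and so was Tnfrsf4 (11.13 and 10.95, −1.06, adjusted p = 0.014).

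Genes that fell showed the same variety. Adh1 (11.55 and 11.49) and Tdrp (10.41 and 10.18) were not called different from their unstimulated levels in transient cells, which lay 4.27 and 4.39 above the continuous mean. Pdlim4 was as low in transient (3.95 and 4.32) as in continuous cells, a difference of −0.39 without a call. Ramp1 (7.82 and 7.11) and Il7r (10.78 and 11.19) lay between the other groups. Klf2 was lower in transient cells (9.90 and 10.41) than in either other group, by 1.58 against continuous and by 1.84 against unstimulated cells, and S1pr1 was too (7.63 and 8.62), by 1.50 and 2.51.

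The same contrast was available in CD8+ OT1-TCR transgenic cells, 3 continuous and 3 unstimulated arrays, where 2658 genes (21.4%) were higher and 3209 (25.9%) lower. The interaction term tested whether the change differed between the cell types. It was higher in CD4 cells for 1049 genes (8.46%) and lower for 1396 (11.3%). The CD8 unstimulated arrays had larger beta-actin 3′ to 5′ differences (1.92 to 2.44) than the CD8 continuous (0.31 to 0.56) and all 5 CD4 arrays, and with that difference as a covariate 139 genes in all were called in place of 2445. Because this covariate differed between the groups compared, the part of RNA quality cannot be told apart from the change itself. Where a call was lost with the covariate, the difference and adjusted p under it are given below.

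Il21 rose by 6.44 in CD4 cells and changed by −0.02 in CD8 cells (difference 6.45, SE 0.41, adjusted p = 2.62e-06). In CD8 cells all 6 arrays were between 3.42 and 3.86. Tgfb3 and Gja1 also rose in CD4 cells without a call in CD8 cells, with differences of 3.93 and 4.00. Nkg7 also rose more in CD4 cells, by 5.21, but the unstimulated CD8 arrays were already at 12.82 to 12.98, about the level that CD4 cells reached. Ccr9, a gut-homing receptor, had the largest difference (6.52); it fell by 5.68 in CD8 cells, from 9.97 to 10.77 down to 4.35 to 4.89, while CD4 cells had it between 4.32 and 5.93 on all 5 arrays. The differences of Plac8 (4.72), Frmd4b (4.44) and Cxcr6 (4.18) lost their calls with the covariate, while the estimates stayed about as large or grew and their errors widened. They became 6.79 (SE 1.61, adjusted p = 0.0646), 5.36 (SE 1.28, adjusted p = 0.0671) and 4.05 (SE 1.13, adjusted p = 0.107). The CD4 change of Plac8 was 2.20 without the second unstimulated array, against 3.51, and those of Frmd4b and Gja1 were 1.91 and 2.02 as the mean of their probe sets, against 3.20 and 3.71.

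In the other direction, Tnfrsf9 rose by 3.55 in CD8 cells and differed by −0.77, without a call, in CD4 cells (difference −4.31, SE 0.35, adjusted p = 1.18e-05). The unstimulated CD4 arrays, at 10.11 and 10.84, were above the unstimulated CD8 arrays (7.74 to 8.04). Xcl1, a chemokine for cross-presenting dendritic cells, rose by 3.84 in CD8 cells and differed by −0.09 in CD4 cells (difference −3.92). Fasl, the death ligand, rose by 3.71 against −0.33 (difference −4.05), and Penk, the enkephalin precursor, by 2.92 against −0.65 (difference −3.57). With the covariate Xcl1 and Penk lost their calls at about the same difference, −3.97 (adjusted p = 0.15) and −3.31 (adjusted p = 0.331). For Fasl the difference shrank to −2.13 (adjusted p = 0.576), and for Lad1 it shrank from −4.26 to −2.57 (adjusted p = 0.56), whereas Pdlim4 (−3.86), whose fall was seen in CD4 cells, kept it. Psmb7, a proteasome subunit, and Phpt1, a histidine phosphatase, rose by 4.80 and 3.00 in CD8 cells against 0.98 and −0.87 in CD4 cells (differences −3.82 and −3.87) and kept their calls with the covariate. Over the lists, the change was called larger in CD4 cells for 8 of 43 mitosis genes and smaller for 0, and larger for 2 and smaller for 13 of 32 ribosome biogenesis genes, beside the 8.46% and 11.3% of all genes. With the covariate these counts were 0 and 0 for the mitosis and 0 and 2 for the ribosome biogenesis genes.

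**Figure D5:**
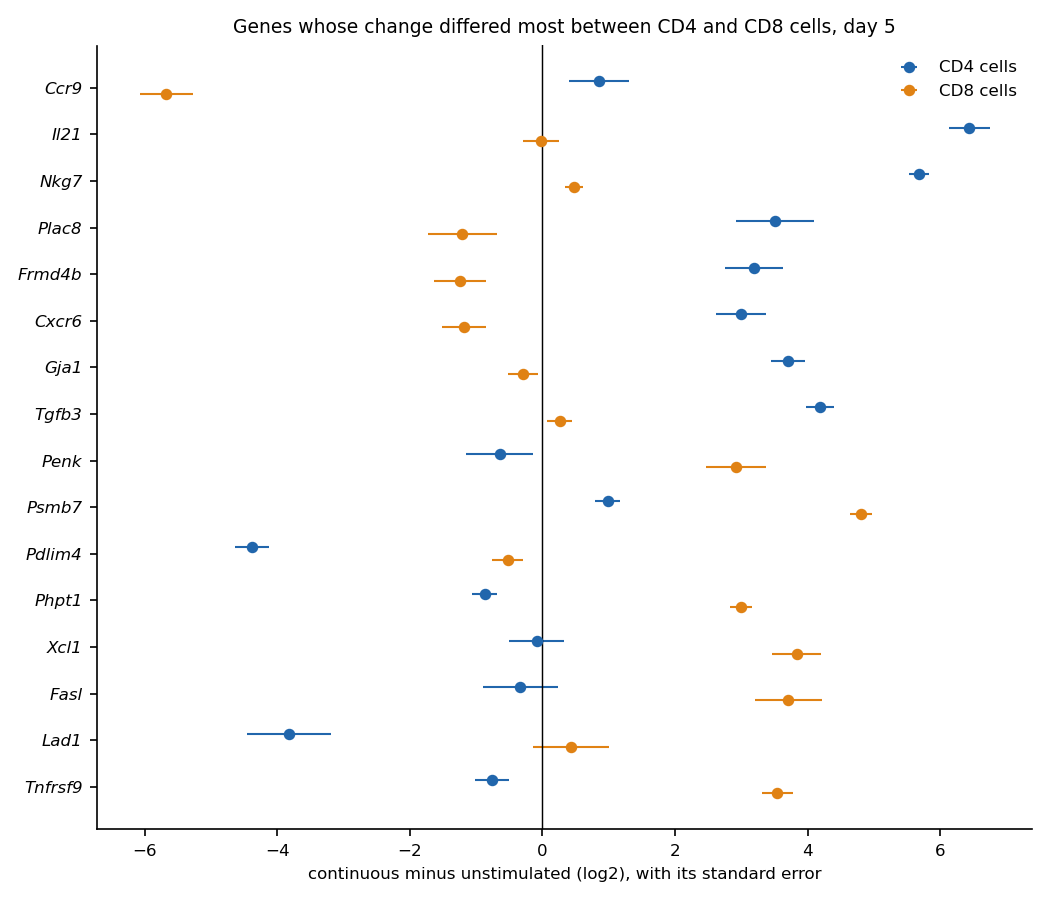
Change between continuous and unstimulated cells at day 5 (x axis, log2 units) with its standard error, in CD4 cells (blue) and CD8 cells (orange), for the 8 genes with the largest difference each way. Il21, Tgfb3 and Gja1 changed by about 0 in CD8 cells, and Tnfrsf9, Xcl1 and Fasl rose in CD8 cells and did not pass the test in CD4 cells.

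Arrays of day 2, taken straight from culture, are other samples and allow a comparison with what the culture stimulus alone did. In CD4 cells stimulated for 2 days, 1320 genes (10.7%) were higher and 89 (0.718%) lower than in unstimulated cultures. The beta-actin 3′ to 5′ difference was 4.30, 3.37 and 4.14 on the unstimulated and 1.11, 1.39 and 1.20 on the stimulated arrays of day 2, a wider gap than at day 5 in CD4 cells, and its part in the day 2 counts was not tested. Of the 1229 genes higher in continuous cells at day 5, 480 (39.1%) were also higher at day 2, which is 36.4% of the day 2 list. The third unstimulated arrays of day 2 went against their labels: the library labelled CD4 had Cd8a at 9.88 and Cd4 at 5.40, and the library labelled CD8 had Cd8a at 5.78. Without both, 3251 genes (26.2%) were higher and 4888 (39.4%) lower. Then 801 of the 1229 (65.2%) were also higher at day 2, or 24.6% of that list, and 87 were lower there, and 39 of the 43 mitosis and 34 of the 35 replication genes were called higher at day 2 (30 and 25 with all arrays). Of the 1341 genes lower at day 5, 39 (2.91%) were also lower at day 2 with all arrays, which is 43.8% of that list, and 420 (31.3%, or 8.59% of that list) were without the third arrays, when 265 were higher there. These shares stand beside the 26.2% and 39.4% of all genes called at day 2 in each direction.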

How the data were processed

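RNA of sorted T cells was measured on 28 Affymetrix Mouse 430A2 arrays; the 5 arrays above were compared in a fit of all 16 arrays of day 5. The authors deposited 1 table of log2 values per probe set, normalised by RMA per the submitters' processing notes (version and settings not given in the sources used here); this scale compresses differences at very high and very low signals. Arrays carry no read depth, so their number limits the precision. Of 22690 probe sets, 20380 named a single gene in GEO's platform annotation, with symbols updated through RefSeq; each of 12393 genes was represented by its brightest probe set (mean of the 28 arrays). limma 3.58.1 in R 4.3.3 fitted 1 mean per group without covariates (10 residual degrees of freedom), with two-sided moderated tests and Benjamini-Hochberg adjustment over all genes, and calls were made at an adjusted p below 0.05. The fit was tested on simulated data of the same arrays, in which 100 of 12393 genes were changed by 1 log2 unit and 100 by 3. For the main comparison 72% and 98% of these changes were recovered, with 10 false calls. For the difference between cell types 51% and 96% were recovered, with 14 false calls. The main comparison itself called 2570 genes, so these false calls do not give the error rate of the reported calls, which was not tested. The genes named were the 15 largest rises and 15 largest falls without overlap between groups, up to 5 called members per list, a fixed set of T cell genes with or without a call, and the 8 largest differences each way between cell types; other list members are given where the whole list is described. The comparison, its 28 functional and 7 marker lists and the named set were chosen with earlier results of these data known. Alternatives covered probe set choice, filtering, moderation, normalisation, the arrays in the fit, array weights, thresholds, replicate numbers and single arrays left out. No 2 arrays held identical values.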

Additional observations from a re-analysis of the deposited data

Results flagged for a closer look

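The change between continuous and unstimulated cells differed between CD4 and CD8 cells, by the interaction term, for 2445 genes, and the 16 largest differences are listed for that reason. The CD4 change exceeded the CD8 change by 6.52 log2 units for Ccr9, 6.45 for Il21, 5.21 for Nkg7, 4.72 for Plac8, 4.44 for Frmd4b, 4.18 for Cxcr6, 4.00 for Gja1 and 3.93 for Tgfb3. It was below the CD8 change, with differences of −4.31 for Tnfrsf9, −4.26 for Lad1, −4.05 for Fasl, −3.92 for Xcl1, −3.87 for Phpt1, −3.86 for Pdlim4, −3.82 for Psmb7 and −3.57 for Penk. With the beta-actin 3′ to 5′ difference as a covariate, an alternative chosen after seeing the data, 9 of these 16 kept their calls and 139 genes were called in all.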

How the results depend on the processing

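The 5 arrays limit the precision, and genes near the lower or upper end of the array scale have compressed differences. Of the genes called, 3 were called in the opposite direction with the mean of the gene's probe sets and 33 had some probe set called in the opposite direction, and 0 were under the other alternatives. Of 149 named genes called, 8 lost the call with the mean of probe sets, 30 with the beta-actin covariate, 18 with the replicate block and 53 without the first array of both groups, Irf4, Ltb, Maf, Slamf1, Pkm and Fdft1 among these 53. Counts are given as higher, lower and differing between cell types (1229, 1341 and 2445 as reported). With all 28 arrays in 1 fit they were 241, 88 and 17, at an adjusted p below 0.01 they were 756, 703 and 1197, and with at least a 2-fold change 574, 474 and 1232. Leaving out each CD4 unstimulated or continuous array in turn gave 733 to 1088, 623 to 1187 and 1491 to 2155. Among alternatives chosen after seeing the data, omitting the first array of both CD4 groups gave 599, 518 and 1189, and the beta-actin covariate gave 886, 902 and 139. Other alternatives (mean of probe sets, filtering, moderation, only the groups compared, normalisation, array weights) kept each count within 1.5 times. Transient against unstimulated ranged over 1671 to 2126 with 1 array left out (2821 as reported) and continuous against transient over 3204 to 3867 (4224), and the day 2 count moved from 1409 to 8139 without the third unstimulated arrays. The cause of these shifts was not tested. The replicate numbers were not taken as pairs: same-numbered unstimulated and continuous arrays had correlations of deviations of 0.42 and 0.28, with 2 pairs only. A replicate block gave 955 higher, 1055 lower and 1948 differing genes, 3541 for continuous against transient and 2614 for transient against unstimulated, and called 4 of the 18 receptor signal reporters, Egr2 among them (1.39, adjusted p = 0.0104).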

Other observations

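Genes of cell survival and of the T cell receptor complex belonged to no comparison above. Of 14 BCL2 family members, 2 were higher and 2 lower in continuous cells, beside 9.92% and 10.8% of all genes. Pmaip1, which encodes the death-promoting protein NOXA, rose by 3.94 log2 units (5.64 and 4.85 on the unstimulated against 10.09, 8.37 and 9.08 on the continuous arrays; adjusted p = 9.86e-05). Bcl2, the survival gene known to be sustained by IL7, fell by 1.65, from 8.79 and 8.48 to 7.40, 7.05 and 6.51 (adjusted p = 0.000589). Bad and Mcl1 changed by 0.60 and −0.47. The call was lost on leaving out any of 4 arrays for Bad and any of 5 for Mcl1. Mcl1 also lost it as the mean of its 6 probe sets (−0.20, adjusted p = 0.259). Bcl2l11, the gene of BIM, differed by −0.04 without a call.

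Of 19 genes of the T cell receptor complex and its proximal signalling, 3 were higher and 3 lower, beside 9.92% and 10.8% of all genes. The adaptor gene Sla, whose product lowers surface receptor, rose by 1.58 (10.69 and 10.84 against 12.63, 12.28 and 12.11), and Rasgrp1, the exchange factor that couples the receptor to Ras, fell by 1.98, from 8.96 and 8.11 to 6.41, 6.55 and 6.71 (adjusted p = 0.073 without the first unstimulated array). As the mean of its 3 probe sets Rasgrp1 changed by −0.72. The receptor chains Cd3e, Cd3g, Cd3d and Cd247 differed by 0.13, −0.32, −0.59 and −0.07, and none passed the test.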
